A study of Mus musculus with 6 samples.

Results

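The 7 genes Mgll, Snx22, Aknad1, Gm13881, Pkd1l1, Phyhip and Myo15 were among the largest falls in fetal liver that cannot edit RNA with ADAR1. They were selected on their fitted log2 fold change between the genotypes in these same libraries and found by symbol, 1 row each, among 37576 genes in the count table. All 7 were among the 16511 genes with enough reads to be tested. Because the genotype difference chose them, it is given below as a description with no test. The livers came from C57BL/6 embryos at embryonic day 12.5, each dispersed to single cells and sequenced as a whole. The control group was wild type 2 (male), 15 and 17 (both female), and the mutant group was homozygous Adar1E861A/E861A livers 6, 16 and 19 (all male), which carry a single changed residue that leaves the enzyme unable to edit. The labels name no Cre and no treatment. The labels number the livers but do not say that each is a separate animal, so p-values measure the spread between these samples.

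Depth ranged from 35280460 to 43733715 reads counted in genes per library. Markers of the labelled tissue were abundant, with 17880 to 31820 CPM over 16 hepatoblast markers in each library and 19830 to 62920 CPM over 32 erythroid markers. The 8 tested markers of neurons and nerve came to 15.1 to 48.9 CPM. The only male control is wild type 2, so differences of sex and differences of that library cannot be told apart. In whole liver, fewer cells of a type and less RNA per cell cannot be told apart either.

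These genes belong to unrelated families. Mgll encodes monoacylglycerol lipase, which splits monoacylglycerols into glycerol and a fatty acid and ends the signal of the endocannabinoid arachidonoylglycerol. Snx22 encodes a sorting nexin, one of the proteins that bind phosphoinositides through a PX domain and act in endosomal traffic. Pkd1l1 encodes a polycystin, known for its part in setting the left-right axis of the embryo. Myo15 encodes the unconventional myosin that carries its cargo to the tips of hair cell stereocilia. Phyhip encodes an interactor of the peroxisomal enzyme phytanoyl-CoA hydroxylase. Aknad1 encodes a protein with an AKNA domain, and Gm13881 is annotated as a long intergenic non-coding RNA.

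RefSeq held start sites for 5 of the 7 genes, all but Gm13881 and Phyhip. The 250 bases before the start are shown for Mgll, Snx22 and Aknad1, because these 3 hold the letters CCNCNCCC, the kind of site that CACC-box factors bind, on either strand. Each was read from the table built on GRCm38.p6 and matched at 1 place in NCBIM37, the build of the files, ending at the base before the annotated gene start. The Mgll window is chr6:88674156-88674405 on the plus strand, the Snx22 window chr9:65917539-65917788 on the minus strand and the Aknad1 window chr3:108542326-108542575 on the plus strand. Sequences run 5′ to 3′ on the gene's strand, and capitals mark matches to a searched motif.
Mgll: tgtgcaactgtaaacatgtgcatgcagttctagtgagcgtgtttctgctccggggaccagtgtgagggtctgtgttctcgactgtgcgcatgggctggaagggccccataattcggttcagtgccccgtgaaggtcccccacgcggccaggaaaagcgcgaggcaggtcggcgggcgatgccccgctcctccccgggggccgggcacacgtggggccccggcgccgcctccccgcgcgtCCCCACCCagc
Snx22: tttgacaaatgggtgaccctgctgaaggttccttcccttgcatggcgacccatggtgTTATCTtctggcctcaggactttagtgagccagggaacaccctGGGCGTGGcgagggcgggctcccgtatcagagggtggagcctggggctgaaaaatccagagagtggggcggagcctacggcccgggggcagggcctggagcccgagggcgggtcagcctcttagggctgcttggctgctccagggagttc
Aknad1: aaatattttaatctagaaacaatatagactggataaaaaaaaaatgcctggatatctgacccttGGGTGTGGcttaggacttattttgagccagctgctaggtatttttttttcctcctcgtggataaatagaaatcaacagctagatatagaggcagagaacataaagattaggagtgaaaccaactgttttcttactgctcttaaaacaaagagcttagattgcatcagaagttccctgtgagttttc

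In these windows the capitals mark 1 CACC-type match in each gene and, in Snx22, 1 match to the GATA letters AGATAA, written there as TTATCT because it lies on the other strand. The motifs did not overlap. RefSeq held another start for Mgll, 292 bases downstream, whose window is not shown. That window had 1 CACC-type match at another place, 74.8% G or C and 40 CG pairs. Another Snx22 start, slightly upstream, had the same matches in its window. CCNCNCCC occurs in 45.9% and AGATAA in 9.99% of 32851 windows of the same length before RefSeq starts. The windows of Pkd1l1 and Myo15 held neither, and none of the 5 genes held TGATAA (7.94% of all windows) or GAAANNGAA, the core of an interferon-stimulated element (7.13%). The Pkd1l1 start in RefSeq, 8874712 on chromosome 11, lay upstream of the annotated gene start at 8873269, so its window did not end there. The Mgll window shown was 68% G or C with 23 CG pairs and the Snx22 window shown 63.6% with 10, against medians of 52.4% and 6 over all windows. The Aknad1 window was 35.6% G or C with 1 CG pair, and the Myo15 window 49.6% with 1, so the genes did not share a base composition.

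Mgll (ENSMUSG00000033174, NCBIM37 chromosome 6, 88674406 to 88778354) was the most deeply counted of the 7. Its level, in counts per 1e6 reads after TMM scaling (CPM), was 48.1 in wild type 2, 75.4 in wild type 15 and 53.7 in wild type 17, against 11.8, 9.23 and 12.8 in E861A 6, 16 and 19. The groups did not overlap, and the lowest control stood 3.76 times above the highest mutant. Mean levels were 59.1 ± 14.4 and 11.3 ± 1.84 CPM (SD, n = 3 each). The fitted log2 fold change was -2.39 (SE 0.22). Of all genes tested, every mutant library lay below every control library in 14.5%, which is the background for the 7 of 7 seen here, and the edgeR fit called 4.26% lower and 7.77% higher in E861A. Nothing is read from the 7, since this contrast chose them.

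Snx22 (ENSMUSG00000039452, chromosome 9, 65912983 to 65917538) had a profile near that of Mgll, which the choice of both on this contrast largely fixed. Its level was 39.1, 61.7 and 38.5 CPM in wild type 2, 15 and 17 and 11.6, 9.97 and 10.04 CPM in E861A 6, 16 and 19. Wild type 15 was the highest library for both genes and E861A 16 the lowest, though for Snx22 E861A 16 and 19 differed within counting error. The mutant livers were close together, with a coefficient of variation of 8.79% against 28.5% in wild type. The means were 46.4 ± 13.2 and 10.5 ± 0.927 CPM (SD, n = 3 each) and the log2 fold change was -2.14 (SE 0.22). Snx22 shares 520 exon bases with Ppib, a cyclophilin gene on the opposite strand. Ppib stood at 88.1 ± 1.41 and 102.1 ± 14.1 CPM and did not pass (log2 fold change 0.21, SE 0.14). Mgll shares 90 exon bases with the antisense gene Gm16628. Whether reads were counted by strand is not given in the sources used here, so reads in the shared bases could come from either gene.

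**Figure D1:**
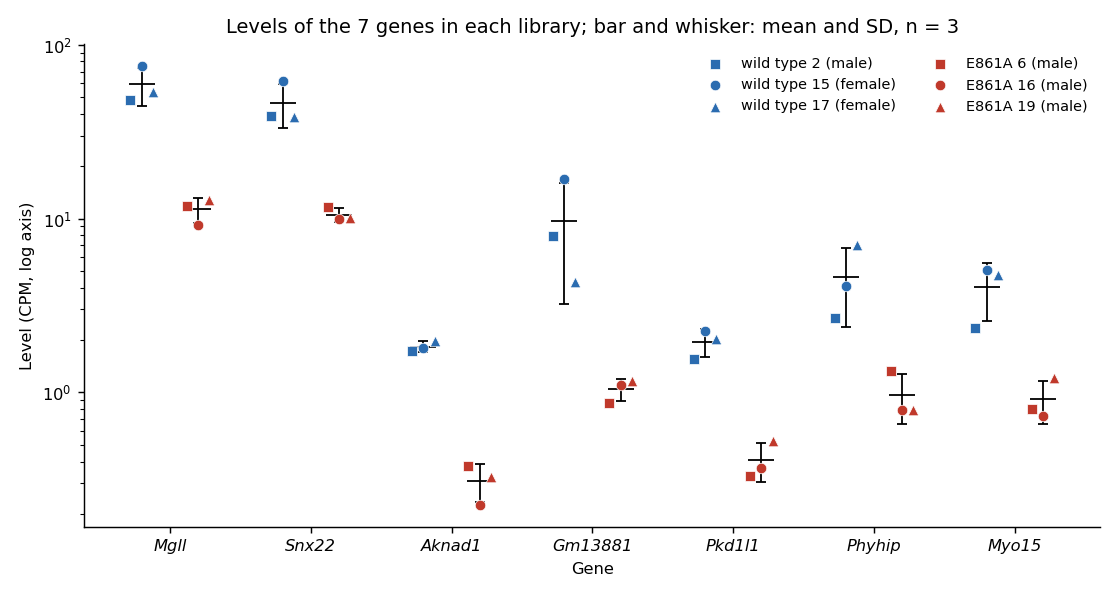
Level of each of the 7 genes (x axis) in CPM on a log axis, one point per library, blue for wild type and red for E861A, with the sex of each liver in the key and bars for the mean and SD (n = 3). For each gene the 3 red points lie below the 3 blue ones, by the least margin for Myo15 and Phyhip.

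The other 5 genes had few reads. Gm13881 (chromosome 2, 103752181 to 103759117) had the largest difference and the widest spread. Its level was 7.89, 16.8 and 4.32 CPM in wild type 2, 15 and 17 and 0.875, 1.10 and 1.16 CPM in E861A 6, 16 and 19, a log2 fold change of -3.21 (SE 0.51). Its coefficient of variation was 66.6% among the controls and 14.4% among the mutants, so the size of its difference rested on which control was used. Without wild type 15 it was -2.54. Phyhip (chromosome 14, 70857283 to 70868639) stood at 2.67, 4.09 and 7.02 CPM in wild type 2, 15 and 17 and at 1.32, 0.790 and 0.788 CPM in E861A 6, 16 and 19 (-2.24, SE 0.43). Its highest control was wild type 17, not 15, and its control values ran over a wide range. Myo15 (chromosome 11, 60282841 to 60341871) stood at 2.35, 5.06 and 4.71 CPM in the controls, in the same order, and at 0.804, 0.734 and 1.20 CPM in the mutants (-2.14, SE 0.39). For Phyhip and Myo15 the lowest control, wild type 2, was only 2.02 and 1.95 times the highest mutant.

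Aknad1 (chromosome 3, 108542576 to 108585214) and Pkd1l1 (chromosome 11, 8726711 to 8873269) were the scarcest. Aknad1 had 75, 69 and 75 reads in the controls 2, 15 and 17 and only 16, 8 and 15 reads in the mutants 6, 16 and 19. Its controls had the lowest coefficient of variation of the 7, 7.34%. Its exact Poisson intervals at 95% overlapped there, at 1.36 to 2.16, 1.40 to 2.28 and 1.56 to 2.49 CPM in controls 2, 15 and 17. No likeness between these livers beyond counting error is read from this. Its level in E861A 16 was 0.226 CPM with an exact Poisson interval of 0.0975 to 0.445 CPM at 95%, which covers counting error only. Its lowest control was at 1.72 CPM. Its log2 fold change was -2.54 (SE 0.35). Pkd1l1 had 68, 87 and 77 reads in the controls and 14, 13 and 24 in the mutants (-2.25, SE 0.35). Wild type 2 was again its lowest control, with an exact Poisson interval that overlapped those of the other controls.

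Within the controls the genes did not all follow the same order. Wild type 15 was highest for 5 of the 7 genes, with wild type 17 highest for Aknad1 and Phyhip. Wild type 2 was lowest for 5, with wild type 17 lowest for Snx22 and Gm13881. Among the mutants E861A 16 was lowest for 4. Among the 7, the profiles of log2 CPM, each centred on its mean over the 6 libraries, were nearest for Mgll and Snx22, at a root mean square difference of 0.20. The genotype difference that chose the 7 makes up much of each profile, so their nearness was largely fixed by that choice. Gfap, not one of the 7, lay nearer to Mgll (0.17) and to Snx22 (0.15). Myo15 and Pkd1l1 were 0.22 apart and Mgll and Pkd1l1 also 0.22. Gm13881 and Phyhip were the farthest apart, at 0.999, and each lay at least 0.407 from every other gene of the set.

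Levels were compared between genes only after division by exon length. On the scale of CPM per kilobase, Snx22 was the most abundant in wild type at 18.2 ± 5.18, followed by Mgll at 12.1 ± 2.97 (SD, n = 3 each), and these ranges overlapped. Gm13881 (2.60 ± 1.73) and Phyhip (1.58 ± 0.762) followed and overlapped each other but not Mgll. Myo15 (0.317 ± 0.116), Pkd1l1 (0.256 ± 0.0471) and Aknad1 (0.246 ± 0.0181) were lowest and did not differ beyond their spread. In E861A Snx22 (4.12 ± 0.363) and Mgll (2.32 ± 0.379) were again first and no longer overlapped. Among tested genes ranked by this level, Mgll stood at percentile 71.0 in wild type and 35.95 in E861A, and Snx22 at percentiles 79.3 and 46.1. Aknad1 stood at percentiles 10.9 and 0.363, near the bottom of the tested genes. Genes with too few reads in both genotypes had been filtered out before this ranking, and Mgll, Snx22 and Aknad1 were chosen as large falls. Their lower percentiles in E861A were largely fixed by that choice, and for Aknad1 by the filter too, so nothing is read from them.

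The difference was nearer to 0 for each of the 7 genes when the comparison was kept to male livers. With male libraries alone, 1 control against 3 mutants, the log2 fold change was -2.08 (SE 0.25) for Mgll, -1.88 (SE 0.23) for Snx22, -2.45 (SE 0.55) for Aknad1 and -2.90 (SE 0.40) for Gm13881. It was -1.92 (SE 0.55) for Pkd1l1, -1.45 (SE 0.52) for Phyhip and -1.34 (SE 0.51) for Myo15. These values assume that the lone control varies like the mutants. With sex as a covariate the values were nearly the same, from -2.91 for Gm13881 to -1.35 for Myo15, because wild type 2 is again the only male control. Phyhip and Myo15 thus moved by over 1.5 times in fold, and Aknad1 by the least. The fold changes in the authors' deposited table, turned to E861A minus wild type, ran from -2.98 for Gm13881 to -2.04 for Myo15. The 7 were not the 7 largest falls. Among genes of at least 1 CPM on average that edgeR called lower, Xist, the RNA of the inactive X chromosome of females, came first. Ccl24 (-2.86, SE 0.59) and Fcrls (-2.38, SE 0.60) also lay within the first 10 of these in size. Gfap followed the last of the 7, Myo15, at -2.11 (SE 0.21) against -2.14.

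**Figure D2:**
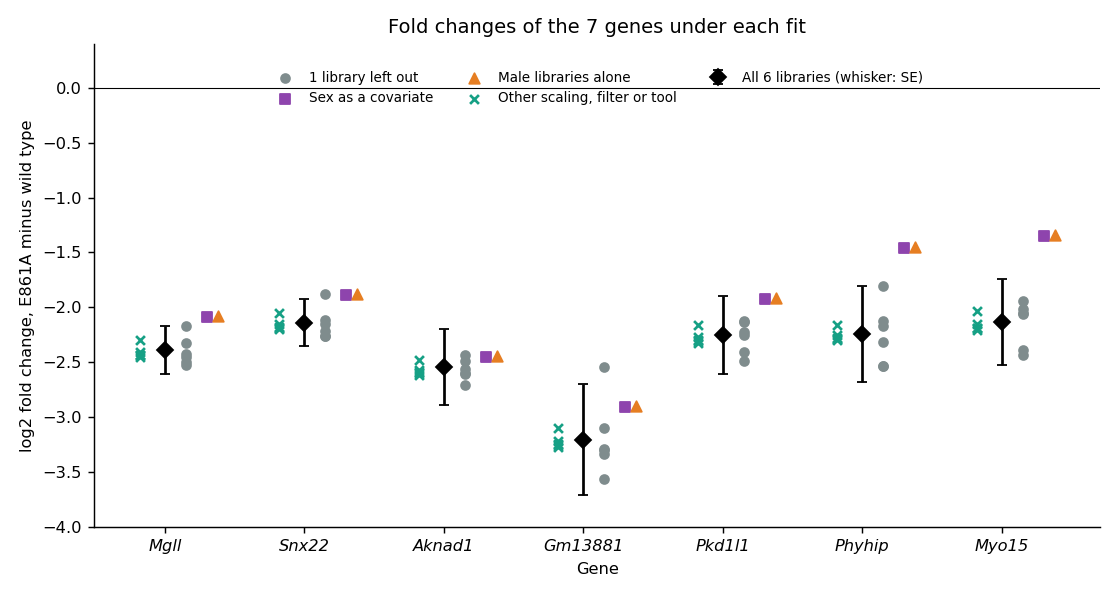
log2 fold change, E861A minus wild type, of each of the 7 genes (x axis) with all 6 libraries (black diamond, whisker SE), with 1 library left out, with a term for sex, in male libraries alone, and under another scaling, filter or tool. No value crosses 0, and the values in male libraries lie nearest to 0 for Phyhip and Myo15, at -1.45 and -1.34.

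The tested genes most like Mgll in profile, among those of at least 1 CPM on average, were Gfap, Gpr155, Fam55b, Slc4a1 and Arrb1, at root mean square differences of 0.17 to 0.37 over the 6 libraries. Those most like Snx22 were Gfap, Gpr155, Fam55b, Slc4a1 and Cdkn2c, at 0.15 to 0.25. Gfap, which encodes an intermediate filament protein known from astrocytes, stood at 23.5, 35.4 and 29.2 CPM in wild type 2, 15 and 17 and at 7.73, 5.70 and 6.96 CPM in E861A 6, 16 and 19. Slc4a1, which encodes band 3 of red cells, stood at 2981, 6992 and 4319 CPM in the controls and 1356, 1223 and 1197 CPM in the mutants. Their choice by nearness to Mgll and Snx22 fixes much of this pattern. Ranking by Pearson correlation in place of distance kept 1 of the 5 genes for Mgll and 0 of the 5 for Snx22, so the names depend on the measure.

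**Figure D3:**
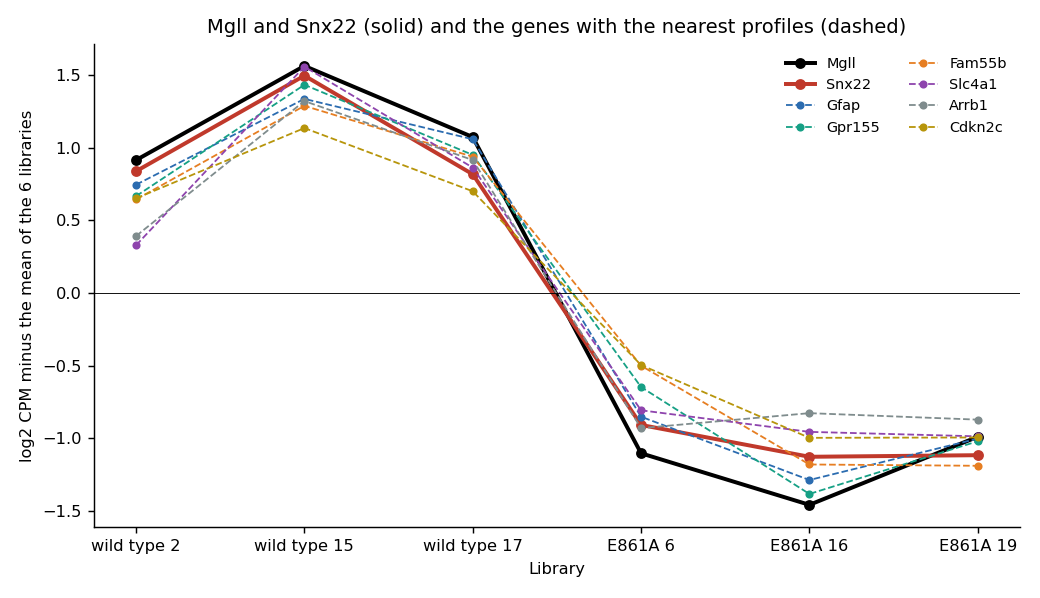
log2 CPM minus the mean of the 6 libraries (y axis) by library (x axis) for Mgll and Snx22, solid, and for the genes with the nearest profiles, dashed. Libraries have no order within a genotype and lines only join the points of a gene. All of the genes drawn are highest in wild type 15.

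Red cell genes moved with these libraries. Of 32 erythroid markers tested, 18 fell, against 4.26% of all genes, and none rose in E861A, with a median log2 fold change of -1.22 against 0.04 over all genes. Summed over the list, the controls held 27350 to 62920 CPM and the mutants 19830 to 21330 CPM, and none of the 32 was at 0 reads. As a mean of log2 CPM they stood at 8.68, 9.70 and 9.10 in the controls 2, 15 and 17 and at 8.13, 8.04 and 7.93 in the mutants 6, 16 and 19, so that wild type 15 was highest here as well. With sex as a covariate or in male libraries alone, 0 of the 32 were called, and without E861A 16, wild type 17 or E861A 6 the falls were 5, 7 and 10, and without wild type 2 they were 28. Their part in the results on the 7 genes was not tested. Markers of neurons and nerve, the tissue in which Phyhip is best known, were highest in wild type 2 and E861A 19, at means of 1.79 and 1.83 log2 CPM against -0.53 to 0.25 in the other libraries. None of the 8 tested was called by edgeR, and 1 had an unadjusted p under 0.05. Their wild-type means ran from 0.347 CPM for Snap25 to 12.7 CPM for Gap43, so most were low. Phyhip was at its lowest control value in wild type 2, and the part of nerve in its level was not tested. Summed, the 8 tested markers came to 15.1 to 41.9 CPM among controls and 23.6 to 48.9 CPM among mutants, and none of the 9 in the table was at 0 reads.

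Over all genes 7.77% rose and 4.26% fell, which is the background for each count in this paragraph. Of 15 genes of monoacylglycerol and endocannabinoid metabolism tested, 1 rose and none fell (median log2 fold change 0.24), near those shares. The gene that rose was Ptgs2, the inducible cyclooxygenase (3.10, SE 0.45, edgeR adjusted p = 0.00485). Beside it, 7 of 12 genes of the response to tissue dissociation rose and none fell (median 1.51), with means of 2.92, 4.81 and 4.40 log2 CPM in the controls 2, 15 and 17 and 5.09, 6.38 and 6.27 in the mutants 6, 16 and 19, and 20 of 20 interferon response genes rose (median 7.67). Their part in the results was not tested. Daglb, a diacylglycerol lipase that makes the substrate of Mgll, was at -0.62 (SE 0.19) and Faah, the amidase for the other main endocannabinoid, at 0.57 (SE 0.18), and neither passed. Of 22 genes of glyceride synthesis, storage and lipolysis, 6 rose and none fell (median 0.34). Pnpla2, the lipase that starts triglyceride breakdown upstream of Mgll, rose by 0.99 (SE 0.16). Its inhibitor G0s2 rose by 1.14 (SE 0.25), and the acyltransferases Dgat2 (1.30, SE 0.19), Mogat2 (0.90, SE 0.21) and Agpat2 (0.70, SE 0.16) and the lipase Lipg (1.56, SE 0.28) also rose. Against 7.77% of all genes rising, this was 6 of 22. With sex as a covariate only Dgat2 and Pnpla2 of these 7 genes passed, in male libraries alone none did, and Lipg, G0s2, Mogat2 and Agpat2 were each lost without wild type 15, wild type 17 or E861A 16, while G0s2, Mogat2 and Agpat2 were also lost without E861A 6 and Pnpla2 without E861A 16. Ptgs2 and Dgat2 passed with each library left out. Hepatoblast markers moved with this list, with 7 of 16 rising, against 7.77% of all genes, none falling and summed levels of 17880 to 22320 CPM among controls and 21850 to 31820 CPM among mutants, and their part was not tested.

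Of 29 genes of sorting nexins other than Snx22 tested, 2 of them with the symbol Snx29, 2 rose and 2 fell, with a median of -0.01. These counts are near the shares over all genes, 7.77% and 4.26%. Snx20 (1.87, SE 0.24) and Snx10 (1.35, SE 0.18) rose, and Snx27, a cargo adaptor of the retromer (-0.68, SE 0.12), and the first Snx29 gene (-1.41, SE 0.28) fell. The other Snx29 gene, at -0.70 (SE 0.45), did not pass. Of the 4 retromer subunits none passed in edgeR (1 with an unadjusted p under 0.05), and Vps26b was at -0.39 (SE 0.13) and Vps35 at -0.45 (SE 0.20). None of the 4 passed in male libraries alone, and with sex as a covariate Snx20 passed while Snx10, Snx27 and Snx29 did not. Snx20 and Snx10 passed without any one of the libraries. Snx27 and Snx29 were lost without wild type 15 or wild type 17, Snx29 also without E861A 6 or E861A 16.

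None of 6 polycystins tested passed, and none had an unadjusted p under 0.05. Those with the smallest p were Pkd1l2, at 0.62 (SE 0.37), and Pkdrej, at -0.73 (SE 0.47). Pkd2, the channel partner in the left-right pathway, was at 0.04 (SE 0.50) and is named for that role after its values were seen. Of 25 other myosin heavy chains, Myo5b rose (0.73, SE 0.16) and Myo9a fell (-0.84, SE 0.17), with a median of 0.04. Over all genes 7.77% rose and 4.26% fell, which is the background for these counts and for those that follow. Of 5 tested partners of myosin XV at stereocilia tips, Gpsm2, which orients the spindle and the hair bundle, fell (-1.13, SE 0.17) from 86.3 ± 9.92 to 39.4 ± 7.09 CPM (SD, n = 3 each), and Eps8 at 0.92 (SE 0.29) and Eps8l2 at 1.04 (SE 0.35) did not pass. Of 8 genes around phytanoyl-CoA hydroxylase, the enzyme itself, Phyh (0.73, SE 0.15), and the acyl-CoA synthetase Slc27a2 (0.73, SE 0.17) rose, where 7.77% of all genes did. Akna, the relative of Aknad1, was at 0.11 (SE 0.23). None of Myo5b, Myo9a, Gpsm2, Phyh and Slc27a2 passed with sex as a covariate or in male libraries alone, Gpsm2 passed with each library left out, and the other 4 were each lost without wild type 15, wild type 17 or E861A 16. Slc27a2 was also lost without wild type 2 or E861A 6, Myo9a without E861A 6 and Myo5b without E861A 19.

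**Figure D4:**
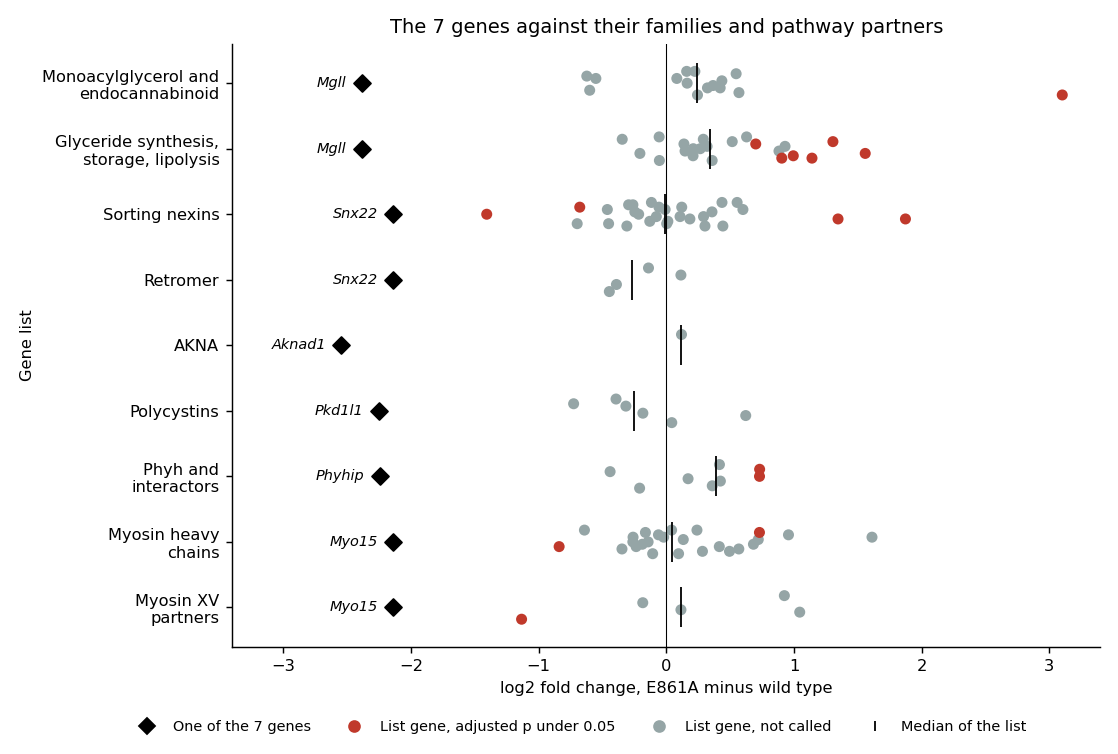
log2 fold change, E861A minus wild type (x axis), of the genes of each family or pathway list (y axis), red where the adjusted p was under 0.05, with the list median as a bar and the related gene of the 7 as a black diamond. The black diamonds lie to the left of every gene of their lists, which the choice of the 7 as large falls largely fixed. The list medians lie between -0.26 and 0.39.

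Genes beside the 7 on the chromosome were mostly not called. Of the 28 nearest tested genes, 2 on each side, 3 fell, 1 rose and 24 were not called, with a median of -0.09. Of all genes, 4.26% fell and 7.77% rose. Gpsm2, the neighbour of Aknad1 named above, fell. Hus1, a checkpoint gene next to Pkd1l1, fell by 0.76 on the log2 scale (SE 0.15), its mean being 56.9 ± 7.82 CPM in controls and 33.5 ± 3.19 CPM in mutants, and 4933439F18Rik near Myo15 fell (-0.58, SE 0.14). Piwil2 near Phyhip rose from a low level (1.53, SE 0.38; 0.326 to 0.947 CPM). Hus1, 4933439F18Rik and Piwil2 were each lost with sex as a covariate, in male libraries alone and without wild type 15, wild type 17 or E861A 16, 4933439F18Rik and Piwil2 also without E861A 6, and Piwil2 also without wild type 2 or E861A 19. Gm13881 lies between Caprin1 and Lmo2, the latter a cofactor of blood cell transcription factors. Lmo2 averaged 293.7 ± 76.7 CPM among controls and 203.0 ± 23.7 CPM among mutants (SD, n = 3 each) and did not pass (-0.53, SE 0.22), nor did Caprin1 (-0.44, SE 0.16). Next to Mgll, Kbtbd12 was at -1.30 (SE 0.43) with under 1 CPM in either genotype and did not pass, and Abtb1 was at -0.12 (SE 0.28).

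**Figure D5:**
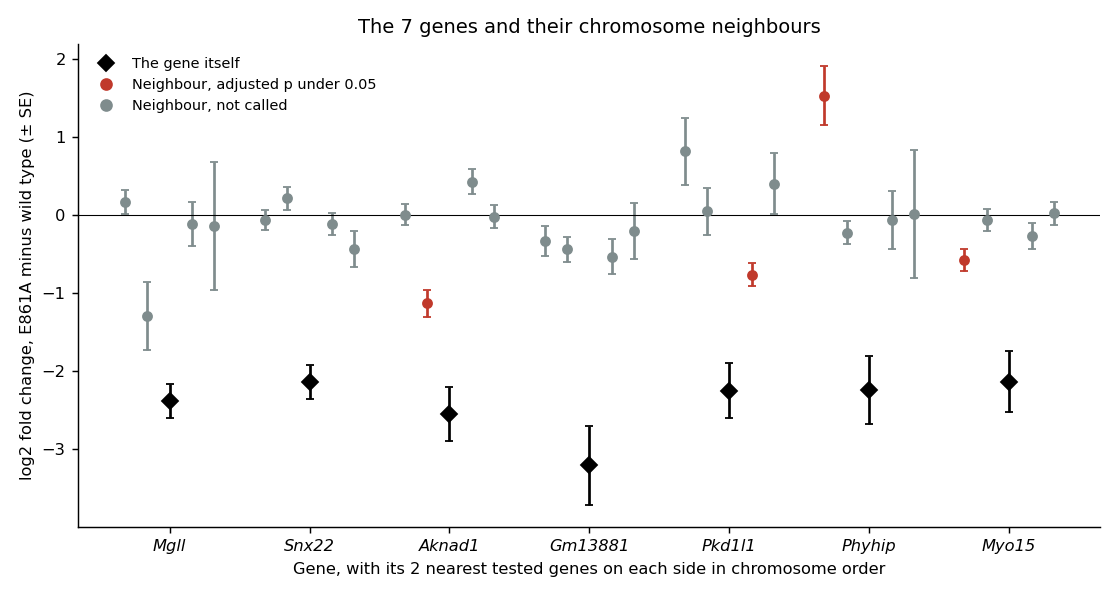
log2 fold change with SE, E861A minus wild type (y axis), of each of the 7 genes (black diamonds) and of its 2 nearest tested genes on each side in chromosome order (circles, red where the adjusted p was under 0.05). The 4 red circles are Gpsm2, Hus1, Piwil2 and 4933439F18Rik. Each of the 7 lies below its neighbours, which their choice as large falls largely fixed.

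Editing was the readout that the choice of genes had not used. ADAR1 turns adenosines of double-stranded RNA into inosines, and the site table lists 6012 positions. None of the 6012 sites was assigned to any of the 7 genes or lay within their bounds, so no level could be compared. Of all tested genes, 10.2% are named in that table. The nearest listed site was 39.1 kb from Myo15, in 4933439F18Rik, and 553.1 kb from Mgll. Sites need covering reads, and how many reads covered unlisted positions in these genes is not known here, so this count does not show that the transcripts were never edited.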

How the data were processed

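Raw counts per Ensembl gene were used as deposited by the authors. The site table gives covering reads as counts and editing levels as a fraction of reads, both as deposited. The authors' deposited table gives log2 fold changes, with p-values, for 14484 genes. The submitters' processing notes list BWA, Bowtie2 (2.1.0.0), Cufflinks, HTSeq, limma, edgeR, SAMtools (0.1.19), TopHat, TopHat2 (2.0.8) and Trimmomatic (0.30). The build names given are NCBIM37 and mm9. The roles of the tools are not given in the sources used here, and neither is strandedness. A second table, of the same counts multiplied by 1 constant per library, was left out.

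All genes were fitted with edgeR 4.0.16 in R 4.3.3 (filterByExpr, TMM, robust quasi-likelihood F test, Benjamini-Hochberg over 16511 genes, threshold 0.05). The fit was also run on simulated data. These held no effects of sex or of single libraries, so that run does not bear on such effects. DESeq2 1.42.0 was an alternative. Each SE was obtained by dividing the size of the fitted log2 difference by the root of its F. Profiles used log2 CPM with a prior count of 2. Gene bounds and exon lengths are from GENCODE M1, which held 37205 of the counted genes, 99.3% with the same start. Sites in the 7 genes were counted at 10 reads or more in each genotype and at any coverage. Sequences were read with Python 3.11.15 and pandas 2.3.3. The 7 genes and all lists were chosen with earlier results of these data known. Named beside the 7 were called genes of each list (or those with the smallest p), the 2 nearest tested genes on each side, and the 5 nearest profiles. A planned Fisher's exact test on editing had no site to test.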

Additional observations from a re-analysis of the deposited data

How the results depend on the processing

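No fit changed the direction of any of the 7 genes. The values that moved by more than the spread between replicates came from the handling of sex. With sex as a covariate the log2 fold changes were -2.09 for Mgll, -1.93 for Pkd1l1, -1.46 for Phyhip and -1.35 for Myo15, and in male libraries alone -2.08, -1.92, -1.45 and -1.34. Scaling, filters and DESeq2 kept Mgll between -2.45 and -2.30 and Snx22 between -2.20 and -2.06. Leaving out each library gave -2.53 to -2.17 for Mgll, -2.26 to -1.88 for Snx22, -3.56 to -2.54 for Gm13881 and -2.54 to -1.80 for Phyhip.

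Counts of calls depended more on the fit. Over all genes there were 1283 rises and 703 falls. A term for sex left 530 and 39, and in male libraries alone 301 and 8. Falls were 1160 with at least 1 CPM in 3 libraries and 1388 with DESeq2. With each library left out, rises ran from 515 to 1737 and falls from 95 to 1502. Over the family and pathway lists, there were 12 rises and 4 falls. A term for sex left 3 and 0, and in male libraries alone 0 and 0, while falls were 7 with at least 1 CPM in 3 libraries and 8 with DESeq2. With each library left out, list rises ran from 4 to 17 and falls from 1 to 8. Myo9a was also lost with library totals in place of TMM, Myo5b without a filter, and Piwil2 without a filter and with DESeq2. The cause of these shifts was not tested. The count of sites in the 7 genes was 0 at each coverage minimum and with each library left out. No paired analysis was possible because no number occurs in both genotypes, nor is a litter named. Depth limits Aknad1 and Pkd1l1, with 8 to 24 reads in each mutant library.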
